A study of Homo sapiens with 8 samples.

Results

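KIT, the gene of the stem cell factor receptor, was followed together with its ligand gene KITLG and 6 genes that lie around KIT in band 4q12: FIP1L1, CHIC2, PDGFRA, KDR, SRD5A3 and CLOCK. These 8 genes were taken by name from tables of 22554 features, and all 8 were found. KIT was chosen by the measured difference in its own level between treated and control samples, so that difference is given as a description and supports nothing. KITLG was taken as the ligand and the other 6 by position, to see whether the locus shared the lower level of KIT. The cells were SKOV3, an established human ovarian carcinoma line, kept in McCoy's 5A medium with fetal bovine serum. Low-density lipoprotein (LDL), the main cholesterol carrier of plasma, was given to 4 of the samples, called treated here, for 48 h at 50 µg/mL; the 4 controls had plain medium. Serum brings lipoproteins of its own, so the controls may not have been free of LDL. All 8 samples come from 1 line, and nothing in the labels tells whether each sample was its own culture; the p-values rest on sample-to-sample spread alone, part or all of which may be technical.

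KIT is a receptor tyrosine kinase of class III. Its ligand, stem cell factor, pairs 2 receptor molecules, which then phosphorylate each other and recruit adaptors of the RAS-MAPK, PI3K and SRC family routes. The receptor is best known from blood stem cells, mast cells, melanocytes, germ cells and the pacemaker cells of the gut, and in the ovary the pair serves signalling between oocyte and granulosa cells. KIT, PDGFRA and KDR are neighbours that arose by duplication of 1 ancestral receptor gene, and in several tumour types the 3 are amplified as a block. The genes next to them have unrelated roles.

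Total counts were 37189698 to 44883561 in the control and 34682501 to 36780334 in the treated samples. treated samples 1 and 4 stood apart from the rest: treated sample 4 lay at -46.05 on the first principal component, against -1.86 to 17.37 for the other 7 samples, and leaving out treated sample 1 raised the number of genes called from 10 to 149. None of 14 epithelial and ovarian carcinoma markers had a count of 0 in all 8 libraries. ERBB2 led at a mean of 2550 CPM (counts scaled to the library total), and PAX8 stood at 387 CPM in control samples. WT1, CLDN3 and MUC16 were low there, at 0.21, 0.691 and 0.879 CPM. The count of WT1 was 0 in control sample 4 and treated samples 2 and 3. None of the 14 passed the threshold. MUC1, at 32.4 CPM in control and 37.9 CPM in treated samples, had groups that did not overlap (edgeR adjusted p = 0.720), as did 3.52% of all genes. MUC1 and EPCAM were higher and KRT7 and MUC16 lower in treated samples at an unadjusted edgeR p under 0.05. Of all genes 5.59% were under it. The summed level of the 14 was 6150 to 6560 CPM in control and 6220 to 6800 CPM in treated samples. Most of it came from ERBB2 and KRT8, the latter at 1686 CPM in control and 1777 CPM in treated samples. Markers of the cell types known for KIT were absent or low. Of 9 mast cell markers 7 had a count of 0 in all 8 libraries, among them CPA3, and the sum was 1.63 to 2.21 CPM in control and 1.24 to 2.34 CPM in treated samples. The melanocyte sum, 17.0 to 20.6 CPM against 16.9 to 21.7 CPM, was nearly all MITF, with TYR at 0. The haematopoietic sum, 39.3 to 50.8 against 50.2 to 54.5 CPM, was led by CD68, a lysosomal gene that many cells express, with PTPRC at 0. Sums for germ cells were 9.38 to 10.8 against 9.08 to 10.3 CPM, led by POU5F1, with NANOG, DAZL, DDX4 and DPPA3 at 0. Interstitial cell of Cajal markers (1.34 to 2.15 against 1.93 to 3.00 CPM) and endothelial markers (2.02 to 3.17 against 2.01 to 2.88 CPM, EMCN at 0) were low as well. Only the stromal sum held a sample far from the rest, at 173 CPM in treated sample 4 against 385 to 447 CPM in the other 7, carried by COL1A1.

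KIT itself (ENSG00000157404) is a plus-strand gene of chromosome 4 (GRCh38, 54657918 to 54740715). In control samples 1 to 4 it had 2971, 2297, 2551 and 2873 counts, and in treated samples 1 to 4 it had 1633, 1712, 1632 and 1392. As shares of each library these are 72.1, 61.8, 65.7 and 64.0 CPM in control and 44.4, 49.4, 47.0 and 40.1 CPM in treated samples. Every treated sample lay below every control sample, and the highest treated value, in sample 2, was still under the lowest control value, also in sample 2. The means were 65.9 ± 4.44 CPM and 45.2 ± 3.96 CPM (SD, n = 4 each), so that treated samples held 31.4% less KIT RNA. The log2 fold change was -0.54 (SE 0.0727), and no test is attached to it here. treated sample 4, which had the lowest KIT level, was also the sample with the low stromal sum; the part of that in its KIT level was not tested, and without this sample the log2 fold change was -0.49. In the fit that led to its choice KIT ranked 3 by p among 15432 genes, and 306 genes (1.98%) had a log2 fold change as low or lower. In bulk RNA, fewer cells with the transcript and less transcript per cell cannot be told apart.

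The start region of KIT is shown beside those of CHIC2 and SRD5A3, the nearest neighbours on either side with more than 10 CPM, because the question is whether genes of 1 locus moved together. Each line holds 250 bases before and 50 after a RefSeq start (GRCh38.p14), read 5′ to 3′ on the gene's strand, at chr4:54657707-54658006 (plus), chr4:54064556-54064855 (minus) and chr4:55345992-55346291 (plus). Capitals mark every E-box, CANNTG, the site read by basic helix-loop-helix factors such as the E proteins and, in the form CACGTG, by CLOCK with its partner.
KIT: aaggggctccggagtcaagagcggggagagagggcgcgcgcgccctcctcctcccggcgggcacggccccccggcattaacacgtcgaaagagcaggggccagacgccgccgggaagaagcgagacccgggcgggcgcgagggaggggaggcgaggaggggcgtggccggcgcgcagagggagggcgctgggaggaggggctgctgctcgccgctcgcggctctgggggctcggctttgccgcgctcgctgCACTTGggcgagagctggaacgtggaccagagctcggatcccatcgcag
CHIC2: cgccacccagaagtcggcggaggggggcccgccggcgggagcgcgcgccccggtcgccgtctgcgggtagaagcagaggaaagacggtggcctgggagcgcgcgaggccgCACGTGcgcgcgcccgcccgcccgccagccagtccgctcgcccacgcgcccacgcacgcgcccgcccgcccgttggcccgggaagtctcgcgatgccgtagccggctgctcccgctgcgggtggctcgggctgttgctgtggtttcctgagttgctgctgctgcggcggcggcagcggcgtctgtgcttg
SRD5A3: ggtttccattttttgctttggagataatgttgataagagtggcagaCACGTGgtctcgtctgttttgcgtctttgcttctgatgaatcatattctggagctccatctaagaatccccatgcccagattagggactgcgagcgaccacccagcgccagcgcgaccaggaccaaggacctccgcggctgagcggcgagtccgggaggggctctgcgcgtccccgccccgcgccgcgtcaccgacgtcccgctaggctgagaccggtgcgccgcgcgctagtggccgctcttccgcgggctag

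All 3 windows are rich in G and C, at 74.3% in KIT, 77.0% in CHIC2 and 62.0% in SRD5A3, and each holds 1 E-box. That of KIT is CACTTG, while those of CHIC2 and SRD5A3 are CACGTG. An E-box occurs in 68.7% and CACGTG in 7.26% of 35114 RefSeq start windows of the same length, searched on both strands, and each CACGTG is also counted as an E-box. The GC box GGGCGG, read by SP1, occurs at 1 place in KIT, 4 in CHIC2 and 1 in SRD5A3, and in 45.0% of all windows. GCCNNNGGC, the AP-2 site, was found in none of these 3 windows and in 23.2% of all. These matches describe the letters only; binding at these windows was not measured here.

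The ligand gene KITLG (ENSG00000049130) lies on chromosome 12, from 88492793 to 88580851 on the minus strand, and encodes a membrane-anchored growth factor that proteases can release. Its counts were 5184, 5055, 4565 and 4968 in control and 5426, 3932, 4301 and 4014 in treated samples. In CPM it stood at 125.8, 135.9, 117.5 and 110.7 in control and at 147.5, 113.4, 123.8 and 115.6 in treated samples. The groups overlapped between 113.4 and 135.9 CPM, with treated sample 1 highest and control sample 4 lowest of all 8. The means of 122.5 ± 10.9 and 125.1 ± 15.6 CPM (SD, n = 4 each) differed by less than the spread between samples (log2 fold change 0.03, 95% interval -0.14 to 0.205, edgeR adjusted p = 0.977).

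With length taken into account, SKOV3 cells held more ligand than receptor transcript. In FPKM (fragments scaled by gene length and library total), KITLG was at 21.3 ± 1.85 and KIT at 12.1 ± 0.929 in control, and at 21.9 ± 2.94 and 8.29 ± 0.74 in treated samples (SD, n = 4 each). The ratio of KIT to KITLG within a sample was 0.607, 0.477, 0.589 and 0.616 in control and 0.317, 0.455, 0.398 and 0.361 in treated samples. treated sample 2 and control sample 2 were nearest to each other, and the groups did not overlap. This ratio carries the values that chose KIT and is given without a test.

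**Figure D1:**
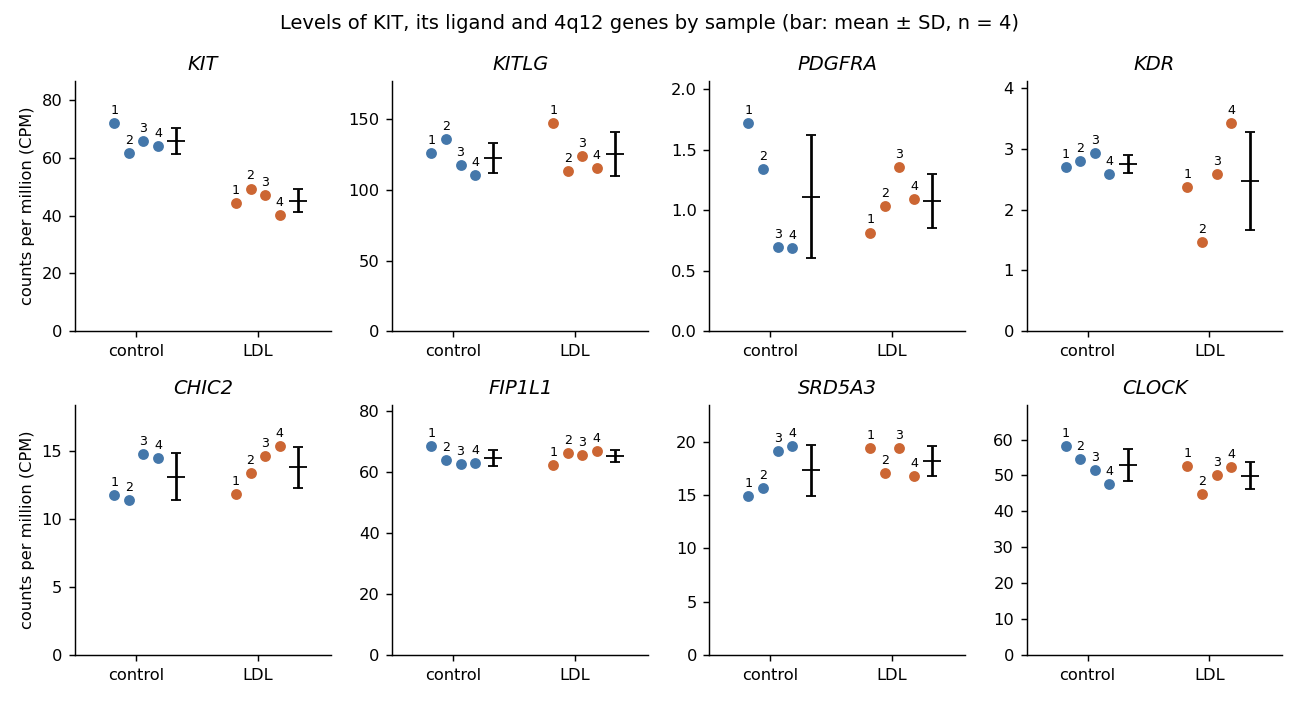
CPM (y axis, from 0) of each of the 8 genes in the 4 control and 4 treated (LDL) samples; points are numbered by sample and bars show mean ± SD, n = 4. Only in the KIT panel do the groups not overlap, at 61.8 to 72.1 CPM in control and 40.1 to 49.4 CPM in treated samples.

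PDGFRA and KDR are the receptor genes on either side of KIT. PDGFRA, the receptor of platelet-derived growth factors on mesenchymal cells, ends 360 kb before KIT starts (ENSG00000134853, 54229097 to 54298247, plus strand). It was barely expressed, with counts of 71, 50, 27 and 31 in control and 30, 36, 47 and 38 in treated samples. Control samples 1 and 2 were the highest of the 8 in counts and control samples 3 and 4 among the 3 lowest, so the spread lay inside the control group. The levels were 1.11 ± 0.51 and 1.08 ± 0.221 CPM (SD, n = 4 each; log2 fold change -0.05, 95% interval -0.78 to 0.69, edgeR adjusted p = 0.993). KDR, the main VEGF receptor of blood vessel cells, begins 338 kb after the end of KIT (ENSG00000128052, 55078259 to 55125595, minus strand). Its counts were 111, 104, 114 and 116 in control and 87, 51, 90 and 119 in treated samples. Controls lay close together at 2.58 to 2.93 CPM, whereas the treated samples ran from 1.47 CPM in sample 2 to 3.43 CPM in sample 4. KDR stood at 2.75 ± 0.149 and 2.46 ± 0.805 CPM (SD, n = 4 each; log2 fold change -0.16, 95% interval -0.64 to 0.32, edgeR adjusted p = 0.954). The intervals of both genes hold 0 as well as the value of KIT, -0.54, so for these genes the fit sets neither value aside.

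CHIC2 and FIP1L1 lie on the PDGFRA side. CHIC2, which encodes a membrane-associated protein with a cysteine-rich domain, ends 593 kb before KIT (ENSG00000109220, 54009789 to 54064690, minus strand), and a deletion across it in some blood diseases joins FIP1L1 to PDGFRA. CHIC2 counts were 484, 424, 572 and 648 in control and 435, 464, 507 and 531 in treated samples. The lowest values, near 11.4 to 11.8 CPM, came from control samples 1 and 2 and treated sample 1, and the highest, 15.3 CPM, from treated sample 4. The mean was 13.1 ± 1.75 CPM in control and 13.8 ± 1.52 CPM in treated samples (SD, n = 4 each; log2 fold change 0.07, 95% interval -0.17 to 0.32, edgeR adjusted p = 0.957). FIP1L1, a subunit of the complex that cleaves and polyadenylates mRNA ends, lies 1197 kb before KIT (ENSG00000145216, 53377643 to 53460861, plus strand). Counts of FIP1L1 were 2813, 2379, 2435 and 2821 in control and 2292, 2290, 2276 and 2316 in treated samples. It had the smallest standard error of the members (0.0551), with levels in CPM of 64.4 ± 2.62 in control and 65.1 ± 1.95 in treated samples (SD, n = 4 each). Its log2 fold change was 0.02 (95% interval -0.10 to 0.13; edgeR adjusted p = 0.983). A read-through gene annotated from FIP1L1 to PDGFRA, ENSG00000282278 (53377839 to 54295272, plus strand), had counts of 4, 1, 0 and 1 in control and 0, 0, 0 and 1 in treated samples; whether shared exons cost FIP1L1 or PDGFRA any reads was not tested.

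SRD5A3 and CLOCK lie on the KDR side. SRD5A3, the polyprenol reductase that makes dolichol for protein N-glycosylation, begins 605 kb after KIT (ENSG00000128039, 55346109 to 55373096, plus strand). Counts of 613, 583, 744 and 878 in control and 715, 593, 673 and 584 in treated samples gave levels of 14.9, 15.7, 19.2 and 19.6 CPM and 19.4, 17.1, 19.4 and 16.8 CPM. Control samples 1 and 2 were lowest and all treated samples fell within the control range. The means were 17.3 ± 2.38 and 18.2 ± 1.41 CPM (SD, n = 4 each; log2 fold change 0.07, 95% interval -0.15 to 0.29, edgeR adjusted p = 0.954). CLOCK, a transcription factor of the circadian clock, begins 687 kb after KIT (ENSG00000134852, 55427903 to 55547138, minus strand). Its counts were 2394, 2026, 1999 and 2143 in control and 1933, 1552, 1741 and 1822 in treated samples, which is 47.8 to 58.1 CPM and 44.8 to 52.6 CPM. CLOCK had the smallest p of these 7 genes, with means of 52.9 ± 4.4 and 50.0 ± 3.67 CPM (SD, n = 4 each), overlapping groups, a log2 fold change of -0.08 (95% interval -0.23 to 0.065) and an edgeR adjusted p of 0.919. TMEM165, an ion transporter of the Golgi, overlaps CLOCK on the opposite strand; whether the counting used strand is not given in the sources used here, so reads from the shared stretch could count for either.

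Of the 7 members other than KIT, none passed the threshold of 0.05 on the edgeR adjusted p, against 0.0648% of all genes tested (0.0389% lower), and none had an unadjusted p under 0.05, against 5.59% of all genes (2.72% lower and 2.88% higher). Without treated sample 1 the share of all genes was 14.5%, and still none of the 7 had an unadjusted p under 0.05. In none of them did the groups separate in CPM, against 3.52% of all genes (1.74% lower and 1.78% higher). DESeq2 and limma voom also called none of the 7, against 0.259% and 0.0518% of all genes. Their log2 fold changes ran from -0.16 (KDR) to 0.07 (CHIC2), with 4 above 0 and 3 below and a median of 0.02, where the median of all genes was 0.01. KITLG, KDR, PDGFRA and SRD5A3 changed sign in at least 1 of the alternative fits, and FIP1L1, CHIC2 and CLOCK in none.

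To look past the named neighbours, every feature with an annotated position that starts within 5 Mb of KIT was taken from the same fit. This gave 36 features beside KIT, all protein-coding, from DCUN1D4 at -2815 kb to IGFBP7 at 2373 kb from the start of KIT. Of these 26 were tested. The other 10 were too low, 3 of them at a count of 0 in all libraries and none above 72 counts over the 8 libraries. None of the 26 passed the threshold, against 0.0648% of all genes. None had an unadjusted edgeR p under 0.05, against 5.59% of all genes, or groups that did not overlap, against 3.52%. At these shares 0 of 26 does not set the window apart. The median log2 fold change of the 26 was 0.02, with 16 above and 10 below 0. Without treated sample 1, treated sample 3 or control sample 4, in each case 1 of 27 tested genes had an unadjusted p under 0.05. The shares of all genes there were 14.5%, 4.52% and 4.87%. For 23 of the 26 the whole 95% interval lay above the fitted value of KIT, -0.54. The 3 whose interval reached it were PDGFRA, KDR and LRRC66, each under 3 CPM. Other genes as low as 0.892 CPM had intervals that did not reach it. The KIT value is the one that chose KIT and has its own interval, -0.70 to -0.39. This comparison is therefore a description and supports nothing. The nearest tested genes not among the members were TMEM165, at 86.4 ± 3.38 and 85.2 ± 4.95 CPM, and NMU, a gene for the peptide neuromedin U, at 34.9 ± 2.81 and 32.8 ± 2.86 CPM (SD, n = 4 each). Their log2 fold changes were -0.02 and -0.09 (edgeR adjusted p = 0.977 and 0.928).

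The 3 smallest p-values in the window, outside the members, belonged to USP46, DCUN1D4 and LNX1. USP46, a deubiquitinase gene at -2067 kb, stood at 23.8, 24.2, 24.3 and 21.8 CPM in control and 20.2, 21.2, 23.2 and 20.2 CPM in treated samples (log2 fold change -0.15, SE 0.0786, edgeR adjusted p = 0.882, unadjusted 0.0767). The groups overlapped through control sample 4 and treated sample 3. DCUN1D4, a neddylation factor gene, had a log2 fold change of 0.10 (edgeR adjusted p = 0.897), and LNX1, a ubiquitin ligase gene whose end overlaps that of FIP1L1 on the other strand, one of 0.28 (edgeR adjusted p = 0.925). IGFBP7 and PAICS, the most abundant genes of the window in CPM, had log2 fold changes of 0.02 and 0.05. Within 1 Mb of KIT 7 genes were tested and within 10 Mb 42. None passed in either window, against 0.0648% of all genes.

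**Figure D2:**
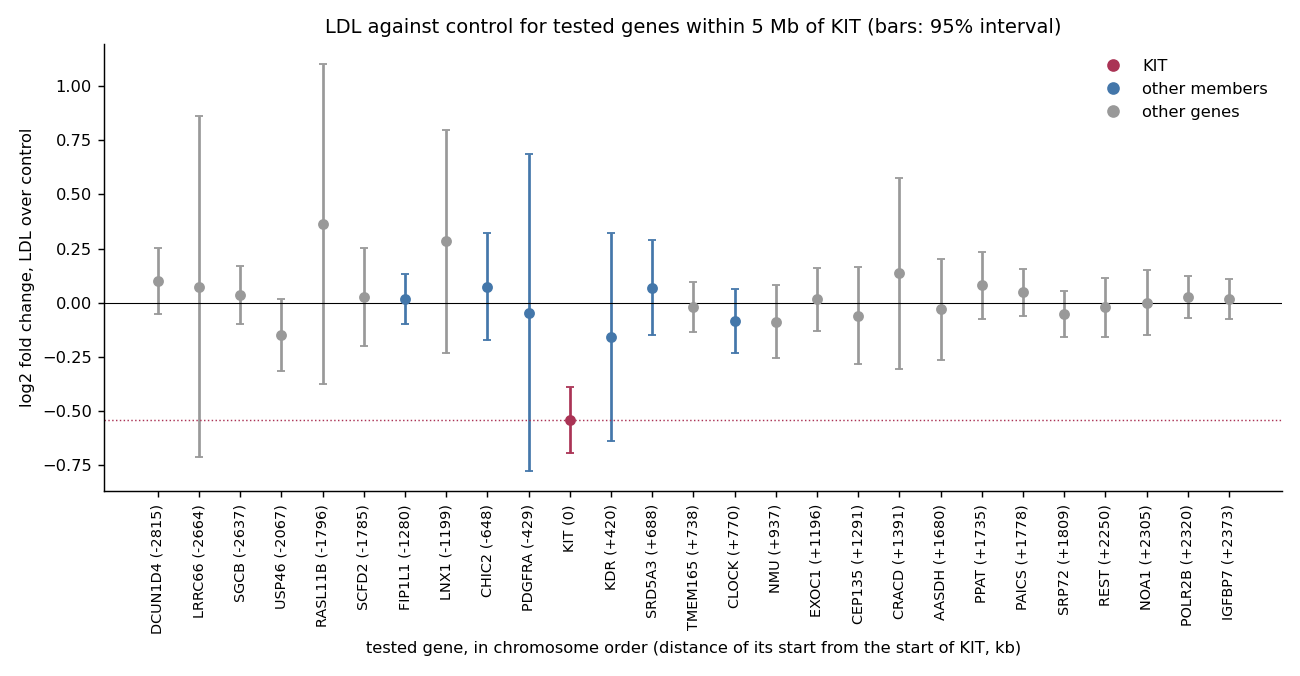
Log2 fold change of LDL over control (y axis) with its 95% interval for KIT and the 26 other tested genes within 5 Mb, in chromosome order, with the distance of each start from that of KIT in kb. The dotted line marks KIT at -0.54; all other points lie between -0.16 and 0.36, and 3 intervals cross the line.

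Ordered by FPKM, the 8 genes covered a wide range. In control samples the order was FIP1L1 (24.9), KITLG (21.3), KIT (12.1), CHIC2 (11.4), CLOCK (4.89), SRD5A3 (4.39), KDR (0.446) and PDGFRA (0.164 FPKM, means). The sample ranges of KIT and CHIC2 overlapped, as did those of CLOCK and SRD5A3, and the other neighbours in this order did not. In treated samples KIT, at 7.27 to 9.03 FPKM, lay below CHIC2, at 10.3 to 13.2 FPKM, with no overlap. By their means alone these genes changed places, and the rest kept the order. In control samples 3 and 4 KIT already lay below CHIC2, at KIT to CHIC2 ratios of 0.942 and 0.955. The KIT values are those that chose it, so this order is a description. In treated samples FIP1L1 and KITLG overlapped as well. By mean FPKM KIT was higher than 75.9% of all features in control and 70.0% in treated samples.

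**Figure D3:**
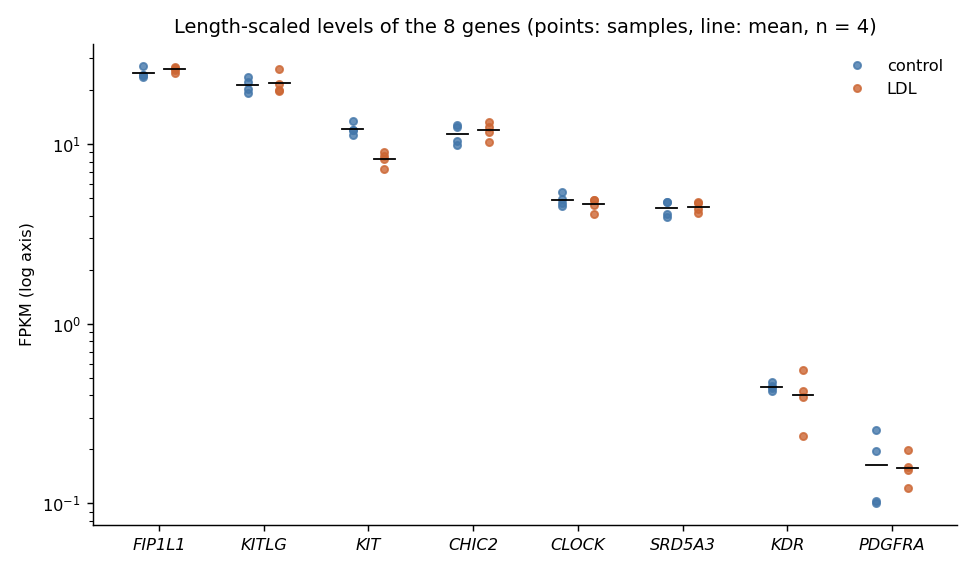
FPKM on a log axis for the 8 genes, ordered by their control mean; points are samples and lines are means, n = 4 per group. KIT lies level with CHIC2 in control samples and below it in treated samples, while KDR and PDGFRA stay under 1 FPKM.

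Genes that work with the members were counted in 8 lists. Of 28 genes just downstream of KIT, all tested, 10 lay above and 18 below 0, with a median log2 fold change of -0.03, and none passed. MAP2K1, the MAPK kinase MEK1, had the smallest p: 85.4 ± 3.95 and 93.1 ± 4.08 CPM (SD, n = 4 each), with no overlap, a log2 fold change of 0.12 and an edgeR adjusted p of 0.876. AKT1, a kinase of the PI3K route and the most abundant of the list in FPKM, was at 337.2 ± 13.5 and 322.1 ± 8.95 CPM (edgeR adjusted p = 0.884, n = 4 each). Of 13 genes listed for the attenuation of KIT or of the signalling below it, all tested, none passed (6 above and 7 below 0, median -0.01). SPRY2, an inhibitor of RAS-MAPK signalling, had the smallest p of all 8 lists. It stood at 10.8, 9.22, 10.6 and 9.02 CPM in control and 11.9, 12.4, 11.2 and 15.5 CPM in treated samples (log2 fold change 0.36, SE 0.119, edgeR adjusted p = 0.706). All 4 treated values were higher than all 4 control values, with treated sample 4 farthest up, while in FPKM the groups overlapped. PTPN11, the phosphatase SHP2, was at a log2 fold change of -0.02 (edgeR adjusted p = 0.976).

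Transcription factors that act on KIT in 1 or more tissues were expressed to unequal degrees. Of 18 listed genes 17 had a row and 14 were tested; 7 lay above and 7 below 0, the median was -0.01 and none passed. GATA2, a factor of blood stem cells and mast cells, had the smallest p, at 6.75 ± 0.587 and 5.62 ± 1.02 CPM (SD, n = 4 each; log2 fold change -0.27, edgeR adjusted p = 0.884). TCF3, which encodes E proteins, was the most abundant in FPKM, at 260.8 ± 2.04 and 264.6 ± 10.7 CPM (log2 fold change 0.02, edgeR adjusted p = 0.969, n = 4 each). Proteases that release the ligand or the receptor from the cell surface numbered 5 tested of 6, with a median of -0.03; ADAM9 was first both by p and by FPKM (log2 fold change -0.08, edgeR adjusted p = 0.884).

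Among 19 related receptors and ligands 15 were tested and none passed (8 above and 7 below 0, median 0.02). The class III receptor gene FLT3 and the VEGF receptor gene FLT1 had a count of 0 in all 8 libraries, and PDGFRB was at 0.886 and 0.653 CPM. VEGFB, a ligand of FLT1, had the smallest p, at 35.5 ± 1.08 and 39.6 ± 0.925 CPM (SD, n = 4 each; log2 fold change 0.15, edgeR adjusted p = 0.839), with no overlap. NRP2, a co-receptor and the most abundant in FPKM, was at -0.07 (edgeR adjusted p = 0.905). Genes of the clock, 22 tested of 23, had 9 above and 13 below 0 and a median of -0.04. BHLHE41, a repressor of CLOCK targets, had the smallest p: 8.03, 8.36, 8.29 and 8.82 CPM in control and 7.45, 6.86, 7.28 and 5.01 CPM in treated samples (log2 fold change -0.33, edgeR adjusted p = 0.849). treated sample 4 was the lowest, and the groups did not overlap. CSNK1D, a kinase of the PER proteins and the most abundant in FPKM, was at -0.04 (edgeR adjusted p = 0.937).

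For FIP1L1, 20 factors of mRNA 3′ end processing were tested, 10 above and 10 below 0, with a median of 0.00. CLP1, an RNA kinase of the cleavage machinery, had the smallest p (log2 fold change -0.15, edgeR adjusted p = 0.879), and SSU72, a phosphatase of RNA polymerase II, was the most abundant in FPKM (0.07, edgeR adjusted p = 0.884). For SRD5A3, 24 genes of dolichol and N-glycan assembly were tested, 15 above and 9 below 0, with a median of 0.03. DOLPP1, the dolichol pyrophosphate phosphatase, went from 25.2 ± 1.44 to 22.2 ± 0.894 CPM (SD, n = 4 each; log2 fold change -0.18, edgeR adjusted p = 0.852), without passing. DPM2, a subunit of dolichol phosphate mannose synthase and the most abundant in FPKM, was at 55.0, 53.1, 53.5 and 51.5 CPM in control and 49.1, 61.3, 62.0 and 67.9 CPM in treated samples (log2 fold change 0.17, edgeR adjusted p = 0.879). Treated sample 1 was the lowest of all 8 and the other 3 treated samples the highest. Without treated sample 1 the log2 fold change was 0.26 and the gene passed (edgeR adjusted p = 0.0364). In that fit 1 of 142 list genes passed, against 149 of 15625 genes in all, so the call does not set the lists apart.

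Over all 8 lists, 141 of 150 genes in the tables were tested and none passed, while 8 had an unadjusted p under 0.05 (3 lower, 5 higher) and 6 had groups that did not overlap (3 lower, 3 higher). These are 5.67% and 4.26% of the list genes, near the 5.59% and 3.52% of all genes. Without treated sample 1 the unadjusted count was 28 of 142, or 19.7%, where the share of all genes was 14.5%. With the replicate block it was 3 of 141, or 2.13%, where the share of all genes had also fallen, to 4.28%. DESeq2 and limma voom called none of them. Their median log2 fold change was -0.01, against 0.01 over all genes.

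**Figure D4:**
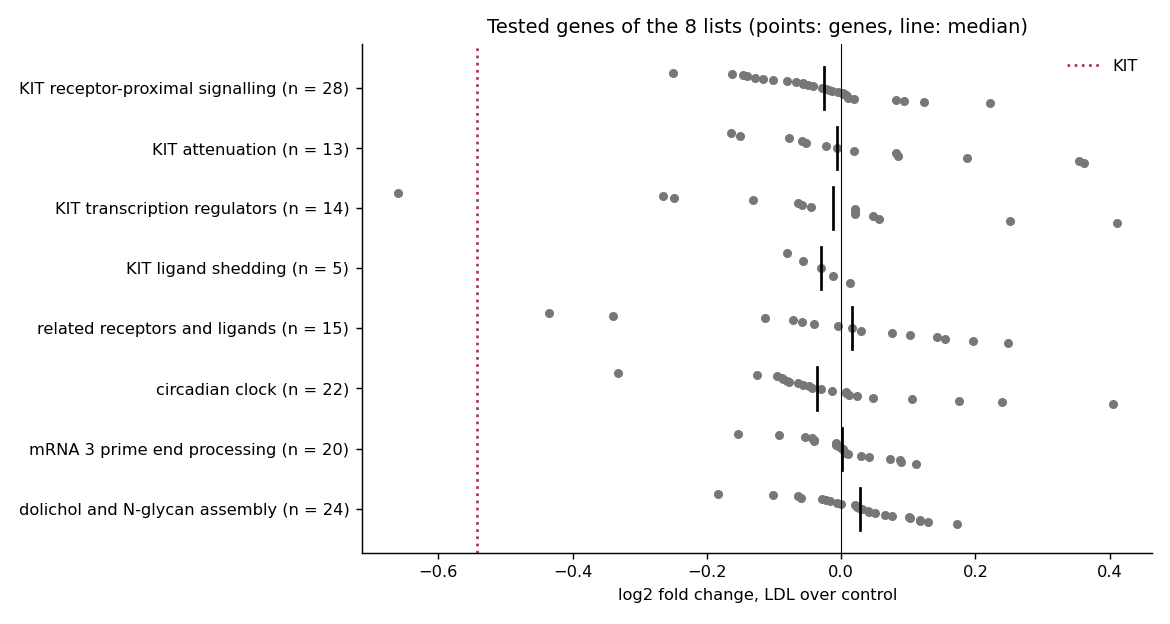
Log2 fold change of LDL over control (x axis) for each tested gene of the 8 lists (points), with the list median (line) and the value of KIT (dotted line). Medians lie between -0.04 and 0.03, and MYB, at -0.66 and under 1 CPM, is the 1 gene left of KIT.

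Genes with the pattern most like KIT were ranked by Pearson's r of log2 CPM over the 8 samples, among 13636 other genes with a mean of at least 1 CPM. The ranking uses the group difference that chose KIT, and all genes share the same libraries, so r is a description. It favours genes with a like difference, so the fold changes and p-values of the genes it picks are descriptions too. The first 5 were ID3 (r = 0.965), GLI2 (0.963), SMAD7 (0.963), DEPDC1B (0.957) and SYT15B (0.950). ID3, an inhibitor of E proteins, stood at 152.2, 130.6, 148.7 and 150.6 CPM in control and 83.1, 83.3, 88.9 and 79.5 CPM in treated samples. As a description, ID3 was lower in treated samples, with a log2 fold change of -0.80 (SE 0.06, edgeR adjusted p = 4.06e-06). As in KIT, control sample 2 was the lowest control and treated sample 4 the lowest treated sample. GLI2, a transcription factor of hedgehog signalling, had means of 35.3 ± 1.57 and 31.3 ± 1.06 CPM, and SMAD7, an inhibitor of TGF-beta and BMP receptors, 75.9 ± 2.83 and 68.2 ± 2.49 CPM (SD, n = 4 each). Both moved less than KIT (log2 fold changes -0.17 and -0.15) and did not pass (edgeR adjusted p = 0.822 and 0.802). DEPDC1B, a gene active in dividing cells, and SYT15B, a synaptotagmin gene with a near-identical copy whose reads it may share, were at -0.19 and -0.36 (edgeR adjusted p = 0.630 and 0.353).

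With the group means removed, only the spread within groups counted. By this measure r with KIT was 0.926 for SMAD7, 0.861 for GLI2 and 0.674 for ID3 over the 8 samples. These genes were picked by r over the same 8 samples, which already holds that spread. Their values here are therefore partly set by the choice and support nothing. Among the genes reported, the highest with group means removed were the unnamed feature MSTRG.16179 (0.984), FAM161A (0.983), KRBA1 (0.976) and TRIM36 (0.954). Their log2 fold changes lay between -0.04 and 0.10. They come from the top of a ranking of 13636 genes, and how high r reaches there by chance was not tested. No member came near the top of either ranking. By r over the 8 samples CLOCK ranked highest of the 7, at 0.314 and place 3311. Within groups FIP1L1 ranked highest, at 0.426 and place 2470, and KDR lay near the other end, at -0.72 and place 13178. Whether the value of KDR is chance was not tested.

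**Figure D5:**
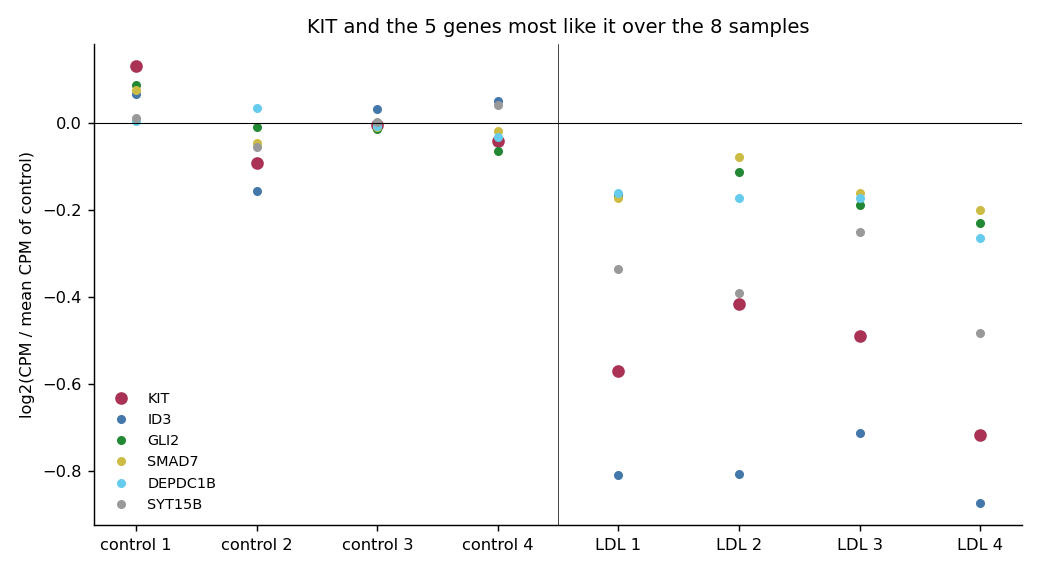
Log2 of CPM over the control mean (y axis) in each of the 8 samples for KIT and the 5 genes with the highest Pearson's r to it. KIT is lowest in treated sample 4 and highest in control sample 1; ID3 lies below KIT in all 4 treated samples, and GLI2, SMAD7, DEPDC1B and SYT15B lie above it there.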

How the data were processed

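Stranded mRNA libraries of 8 samples were sequenced. The authors deposited 1 table of whole-number counts and 1 of FPKM, each for 22554 features. The values deposited by the authors are taken as estimated counts per gene, with no scaling, since small even values are in excess and some features carry assembly names; FPKM, scaled by the authors for length and depth, served for levels per length and as an alternative. HISAT2, featureCounts, DESeq2 1.26.0 and GRCh38 are named in the submitters' processing notes, without roles; how reads were counted, and against which annotation, is not given in those notes. Positions came from GENCODE 29 (19354 features matched by symbol or identifier) and otherwise RefSeq (485); the 2715 features with no match have no position and enter no window.

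In R 4.3.3, edgeR 4.0.16 fitted all features by its quasi-likelihood method (TMM, filterByExpr, robust, group as the only term), with Benjamini-Hochberg adjustment over 15432 genes and a threshold of 0.05; the fit was tested on simulated data. CPM are counts over the library total. Intervals are at 95%. Alternatives were DESeq2 1.42.0, limma 3.58.1 (voom and log2 FPKM), other normalizations and filters, a replicate block, each sample left out, and other windows.

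The members and lists were chosen with earlier results of these data known. Genes are named by a fixed rule: the members, every tested gene within 1 Mb and the 3 smallest p in the 5 Mb window. The rule also takes the smallest p and highest FPKM of each list, and the 5 genes most like KIT by either measure. From a cell type list it takes the highest marker. Others were chosen after their values were seen: IGFBP7, PAICS, LRRC66, PDGFRB, FLT3, FLT1 and MYB. So were the markers PAX8, WT1, CLDN3, MUC16, MUC1, EPCAM, KRT7, KRT8, CPA3, TYR, PTPRC, EMCN, NANOG, DAZL, DDX4 and DPPA3. Of the genes most like KIT with group means removed, 1 is not reported here.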

Additional observations from a re-analysis of the deposited data

Results flagged for a closer look

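In 74 groups of 4 samples, from the 37 genes checked, 1 sample lay far from the other 3 in 2 cases; chance alone flags about 1 in 20 groups, and none of the 8 members is among them. ID3 stood at 131 CPM in control sample 2, against 149 to 152 CPM in the other controls. DEPDC1B stood at 37.5 CPM in treated sample 4, against 39.9 to 40.2 CPM in the other treated samples.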

How the results depend on the processing

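The log2 fold change of KIT kept its direction in all 18 alternative fits and moved by less than 1 SD between samples (0.118); it ran from -0.60 to -0.49, which is also the range with each sample left out in turn. As a description of the values that chose KIT, its adjusted p was under 0.05 in 13 of the 18 and above it with the replicate block (0.0562), with FPKM (0.0674, 0.0687 and, with no minimum, 0.282) and without control sample 3 (0.0516). None of the other members and no other gene within 5 Mb passed in any fit that tested it. List genes passed in 1 fit: leaving out each sample in turn gave 0 to 1 gene, DPM2 without treated sample 1. There it was 1 of 142 list genes, against 149 of 15625 genes in all. The sign of 4 members turned, without a call, in some fits. For PDGFRA this was so with limma voom (0.048) and the replicate block (0.03) and, with samples left out (range -0.22 to 0.242), without treated sample 1 or control sample 1 or 2. With samples left out, KITLG ran from -0.055 (without treated sample 1) to 0.08, KDR from -0.359 to 0.015 (without treated sample 2) and SRD5A3 from -0.003 (without control sample 1) to 0.135. KITLG also turned without control sample 4 (-0.014). The number of all genes called was 10 and moved to 43 with DESeq2, 2 to 4 with FPKM, 2 with the replicate block, and 2 to 149 with a sample left out. Samples share only a number across groups: deviations of same-numbered samples correlated at -0.101, 0.06, 0.032 and -0.004, so the block was not used, and with it 0 members other than KIT, 0 window genes and 0 list genes passed and KIT was at -0.55. KDR and PDGFRA had 51 to 119 and 27 to 71 counts per library, and their intervals span both no difference and that of KIT.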
